A study of Mus musculus with 12 samples.

Results

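The RNA pulled down with an antibody against the L1 ORF1 protein was compared with the RNA that beads held without antibody. Of the 12 RNA-seq libraries of the series, 6 enter this comparison, 3 of the immunoprecipitate (IP) and 3 of the beads-only control (BO), chosen by their labels. Each library came from testes of 3 month old C57BL/6 mice of the genotype Mael-/-, so the IP and the control share the same deletion and no wild-type testis enters. The extract was adjusted to 10 mM EDTA, which takes ribosomes apart, and was run on a 10 to 50% sucrose gradient. Fractions 5 to 8 were pooled, and such pools were the input for beads that carried the antibody and for beads alone. BO carried no antibody of any kind, so RNA held by an unrelated antibody was not measured. The libraries are named as biological replicates, without saying how many animals went into each.

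L1 is a retrotransposon that copies itself through an RNA intermediate. Its RNA encodes ORF1p, an RNA-binding chaperone that coats L1 RNA, and ORF2p, the endonuclease and reverse transcriptase, and the proteins bind preferentially the RNA that encoded them. In the mouse the youngest L1 subfamilies are L1Md_A, L1Md_T and L1Md_Gf, while the L1Md_F names, the Lx names and the L1M names are older. Mael encodes Maelstrom, a protein of the piRNA pathway that keeps retrotransposons silent in male germ cells, and spermatocytes without it accumulate L1 RNA and protein and die in meiosis. ORF1p can also bind other RNAs, among them mRNAs, SINE RNA and small structured noncoding RNAs. A beads-only control shows which of the RNAs in a pulldown are held without the antibody.

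For repeats, the value of a subfamily is its number of reads scaled to bring the 75th percentile of every library to a common value. It shows a subfamily's part in the composition of a library, not the amount of RNA that the beads held. Reads on repeats numbered 1384904, 1533417 and 2003193 in IP replicates 1 to 3, and 3512997, 1712212 and 2801685 in BO replicates 1 to 3. A single read was worth between 0.623 and 1.60 normalized counts. BO replicate 3 stood apart, because rRNA names took 54.3% of its normalized count, against 3.27% and 3.43% in the other BO libraries and between 2.25% and 5.85% in IP. The LSU rRNA name read 2342152 in BO replicate 3, against 69645 and 72408 in the other BO libraries and 56098, 42477 and 109792 in IP. The 75th percentile depends little on a single name, and without BO replicate 3 the comparison below gave 68 subfamilies higher and 51 lower in place of 60 and 45. Of genes and of single loci only the authors' mean of each group is used, without a value per library, so those ratios carry no error and no test. The deleted gene was near 0 in both groups, with a Mael mean of 0.502 in BO, which is what 1 read in 1 library adds to that mean, and 0 in IP.

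Several of the RNAs that the results turn on are small structured RNAs with a fixed sequence, and 3 of them are shown here. 7SK holds the elongation factor P-TEFb in an inactive complex in the nucleus, and it was called higher in IP. Rmrp is the RNA of RNase MRP, which cuts precursor rRNA, and its IP mean was above its BO mean. Scarna6 is a guide RNA of Cajal bodies that directs modification of spliceosomal RNA, and its BO mean was above its IP mean. The sequences are read 5′ to 3′ from GENCODE M21 on GRCm38, with no part marked. They lie at chr9:78175303-78175633 on the minus strand for 7SK (gene Rn7sk, first 300 of 331 bases), chr4:43492783-43493063 on the minus strand for Rmrp and chr1:87784556-87784820 on the plus strand for Scarna6.
7SK: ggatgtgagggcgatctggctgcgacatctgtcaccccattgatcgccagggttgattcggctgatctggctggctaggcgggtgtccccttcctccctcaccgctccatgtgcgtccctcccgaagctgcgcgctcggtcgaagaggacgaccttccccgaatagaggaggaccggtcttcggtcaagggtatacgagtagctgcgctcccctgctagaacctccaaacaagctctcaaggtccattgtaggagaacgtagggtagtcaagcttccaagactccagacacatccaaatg
Rmrp: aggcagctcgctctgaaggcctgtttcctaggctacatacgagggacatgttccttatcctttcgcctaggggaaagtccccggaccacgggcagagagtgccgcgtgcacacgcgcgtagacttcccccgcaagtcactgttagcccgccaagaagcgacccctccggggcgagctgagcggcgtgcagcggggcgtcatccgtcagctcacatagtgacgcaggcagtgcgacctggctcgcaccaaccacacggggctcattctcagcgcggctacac
Scarna6: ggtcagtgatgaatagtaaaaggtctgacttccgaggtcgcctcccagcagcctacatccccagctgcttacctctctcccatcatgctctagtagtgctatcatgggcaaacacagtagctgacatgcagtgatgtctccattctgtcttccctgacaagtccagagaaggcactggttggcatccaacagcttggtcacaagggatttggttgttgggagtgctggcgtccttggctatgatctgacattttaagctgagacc

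Repeat subfamilies differed between IP and BO in both directions. Among the 1180 subfamilies that averaged at least 10 normalized counts across 12 libraries, 60 (5.08%) were called higher in IP and 45 (3.81%) lower, where a call needs a log2 fold change above 1 or below -1 and an adjusted p under 0.05 from limma. The libraries of the groups did not overlap for 59 of the 60 and for all of the 45, and the exception was (CGGGG)n. Over all tested subfamilies, the IP libraries lay above the BO libraries for 195 (16.5%) and below them for 360 (30.5%). Among the 938 transposable element (TE) subfamilies, that is LINE, SINE, LTR and DNA names, 48 (5.12%) were higher and 36 (3.84%) lower. The median fold change over the 1180 was -0.12 on the log2 scale. Scaled to library totals, the median moved to 0.36 and the calls to 125 higher and 17 lower, so that 88.0% of the calls were higher in place of 57.1%. Directions below therefore hold relative to the 75th percentile of each library. Over the tested subfamilies the normalized count summed to 4491527 in BO replicate 3, the library rich in rRNA, and to 2188209 and 2226261 in the other BO libraries. The part of that library in the shift of the calls was not tested.

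**Figure D1:**
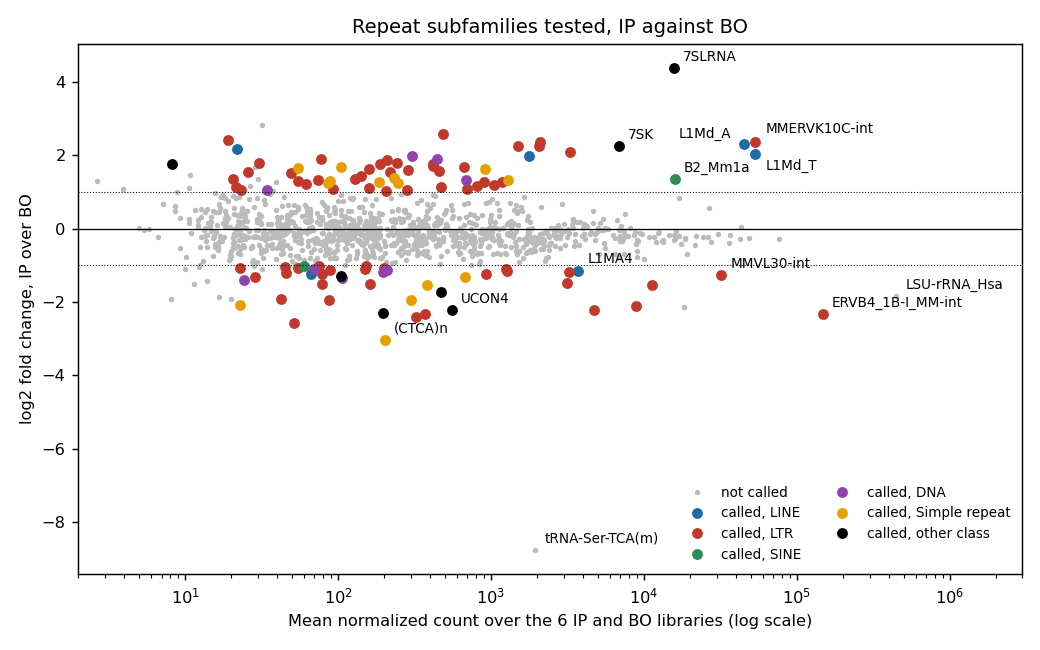
Log2 fold change of IP over BO (vertical axis) against the mean normalized count of the 6 libraries (horizontal, log scale) for the 1180 subfamilies tested, 1 point each, with called subfamilies coloured by repeat class and dotted lines at a log2 fold change of 1 and -1. 7SL RNA stands highest at 4.38, L1Md_A, L1Md_T and MMERVK10C-int lie between 2.05 and 2.38 at high counts, and ERVB4_1B-I_MM-int lies at -2.33.

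The young L1 subfamilies were higher in the immunoprecipitate. L1Md_A read 95645, 75201 and 56029 in the IP libraries and 15633, 14530 and 14131 in the BO libraries. Every IP library lay above every BO library, with a log2 fold change of 2.32 (SE 0.20, n = 3 libraries per group, adjusted p = 5.61e-06 from limma). L1Md_T read 111455, 84051 and 61962 in IP and 20911, 19423 and 20260 in BO, a log2 fold change of 2.05 (SE 0.22, adjusted p = 2.97e-05 from limma). For both, the BO libraries lay close together while the IP libraries spread. L1Md_Gf, a rarer member of the same set, read 3946, 2595 and 2005 in IP and 849.5, 584.1 and 663.9 in BO (log2 fold change 1.99, adjusted p = 8.80e-05 from limma). With L1Md_A and L1Md_T it makes 3 of the 6 L1Md names called higher, beside 5.12% of all TE subfamilies.

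The L1Md_F names differed by less. L1Md_F2 read 35788, 31395 and 29065 in IP and 23707, 21456 and 19984 in BO, with a log2 fold change of 0.56 (adjusted p = 0.00269 from limma). L1Md_F3 and L1Md_F had fold changes of 0.48 and 0.47. In each of these 3 the groups did not overlap and the adjusted p was under 0.05, but the change was under 2-fold, so none was called. Over the 130 names of the L1 family, 4 were higher and 2 lower, beside 5.12% and 3.84% of all TE subfamilies. The 21 Lx names gave no call, with a median of -0.17 and a range from -0.68 to 0.38. Among 89 older names that begin with L1M, L1P or HAL, L1M2b was higher and L1MA4 and L1M3c lower, with a median of -0.34. The 89 leave out the name L1M itself, which was at -0.71 and not called. L1M2b is a low-count name of 48.5, 29.4 and 29.3 in IP and 3.74, 7.81 and 11.2 in BO, whereas L1MA4 is abundant, at 2155, 2356 and 2408 in IP and 5806, 5294 and 4312 in BO (log2 fold change -1.15, adjusted p = 8.47e-06 from limma). The LINE class as a whole took 25.7%, 24.3% and 22.4% of the normalized count in IP and 19.3%, 18.3% and 8.41% in BO, the last value being that of the library rich in rRNA.

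**Figure D2:**
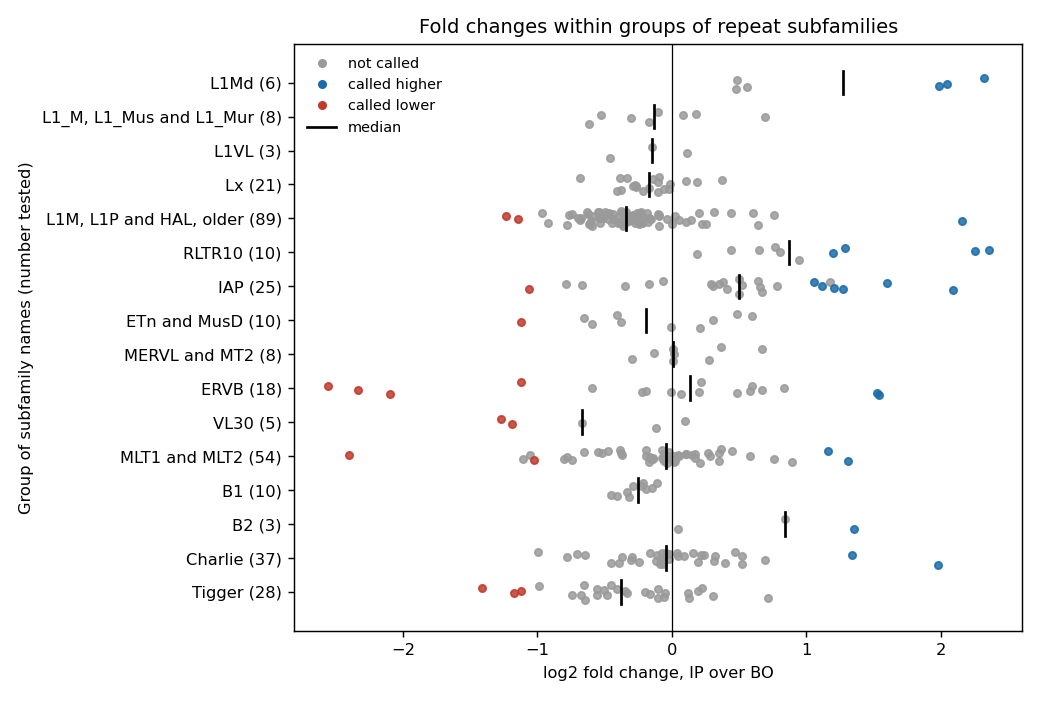
Log2 fold change of IP over BO (horizontal axis) for each tested subfamily, grouped by name (vertical axis, number tested in parentheses), with points coloured by call and a black bar at the median of each group. The L1Md names lie between 0.47 and 2.32, the 21 Lx names gave no call, the 10 RLTR10 names are all above 0, and the 10 B1 names are all below 0.

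Endogenous retroviruses gave calls in both directions. They are remnants of retroviruses with long terminal repeats (LTRs) around an internal part, whose names end in int. The 581 LTR subfamilies gave 39 higher (6.71%) and 28 lower (4.82%), near the 5.12% and 3.84% of all TE subfamilies, and within them the ERVK family, which holds the mouse betaretroviruses, gave 22 and 16 of 267, and ERV1, the gammaretrovirus-like family, 10 and 3 of 104. ERVL gave 2 and 4 of 91, and its MaLR branch 2 and 2 of 95. MMERVK10C-int, an internal part of a young ERVK element, read 119611, 83727 and 65446 in IP and 20953, 15258 and 14639 in BO (log2 fold change 2.38, SE 0.20, adjusted p = 5.02e-06 from limma). The RLTR10 names, which take in LTRs and the internal part RLTR10-int, had 4 of 10 called higher, with a median over the 10 of 0.87. RLTR10B read 4421, 3407 and 2647 in IP and 745.4, 552.9 and 710.4 in BO, a log2 fold change of 2.36. RLTR10B2 read 4268, 3349 and 2571 in IP and 826.5, 654.4 and 620.6 in BO, a log2 fold change of 2.26.

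Among ERV1 names, LTRIS_Mm and MuRRS-int, which belong to a murine retrovirus-related element, stood highest. LTRIS_Mm read 1072, 746.4 and 688.6 in IP and 163.9, 100.2 and 150.7 in BO (log2 fold change 2.59, SE 0.19, adjusted p = 1.73e-06 from limma). MuRRS-int read 3086, 2448 and 1926 in IP and 495.5, 562.0 and 466.6 in BO, a log2 fold change of 2.27. MURVY-int, a related element repeated on the Y chromosome, had a log2 fold change of 1.89. IAP elements, which are among the most active LTR elements of the mouse, had more names above than below. Of 25 IAP names 6 (24.0%, beside 5.08% of all subfamilies) were higher and 1 lower, with a median of 0.50. The IP libraries lay above every BO library for 16 names (64.0%, beside 16.5% of all subfamilies) and below for 3. IAPEy-int had a fold change of 2.09 and IAPEY_LTR of 1.60, whereas IAPEz-int had 0.41 and was not called. IAPLTR4_I was lower at -1.06.

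Of the LTR elements called lower in IP, ERVB4 had the most reads. ERVB4_1B-I_MM-int had more normalized count than any other TE in BO, 265442, 256438 and 216483, against 61955, 45368 and 41002 in IP (log2 fold change -2.33, SE 0.20, adjusted p = 5.38e-06 from limma). Its LTR, ERVB4_1B-LTR_MM, had a fold change of -2.10. The remaining ERVB4 names were not called. Over all 18 ERVB names 2 were higher and 4 lower, beside 5.12% and 3.84% of all TE subfamilies. MMVL30-int, the internal part of VL30, a retrovirus-like element without a full set of genes, had a fold change of -1.27, and its LTR name RLTR6_Mm, at 2411, 1919 and 1580 in IP and 3814, 5579 and 4046 in BO, had -1.19. MYSERV6-int, a further ERVK name, read 7788, 5340 and 4494 in IP and 19532, 16499 and 14373 in BO (log2 fold change -1.54). Scaled to library totals, MMVL30-int lost its call at -0.77, while ERVB4_1B-I_MM-int stayed at -1.84. By fold change the lowest LTR name was ERVB2_1-I_MM-int, a name of few reads, at 19.1, 14.1 and 9.75 in IP and 107.2, 63.8 and 94.6 in BO (-2.56). Of the 8 lowest by the naming rule, RLTR13D3A had -2.34, RMER16A3 -2.20 and MLT1D-int, of the MaLR branch, -2.40. The 8 lowest held also the satellite name SYNREP_MM at -2.29 and the conserved element UCON4 at -2.22. Of the most abundant name of each of 23 repeat families, 3 were called higher and 4 lower: beside L1Md_T, FordPrefect, MMVL30-int and ERVB4_1B-I_MM-int these were MamGyp-int at 1.80, MER124 at -1.72 and LTR88c at -1.92.

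**Figure D3:**
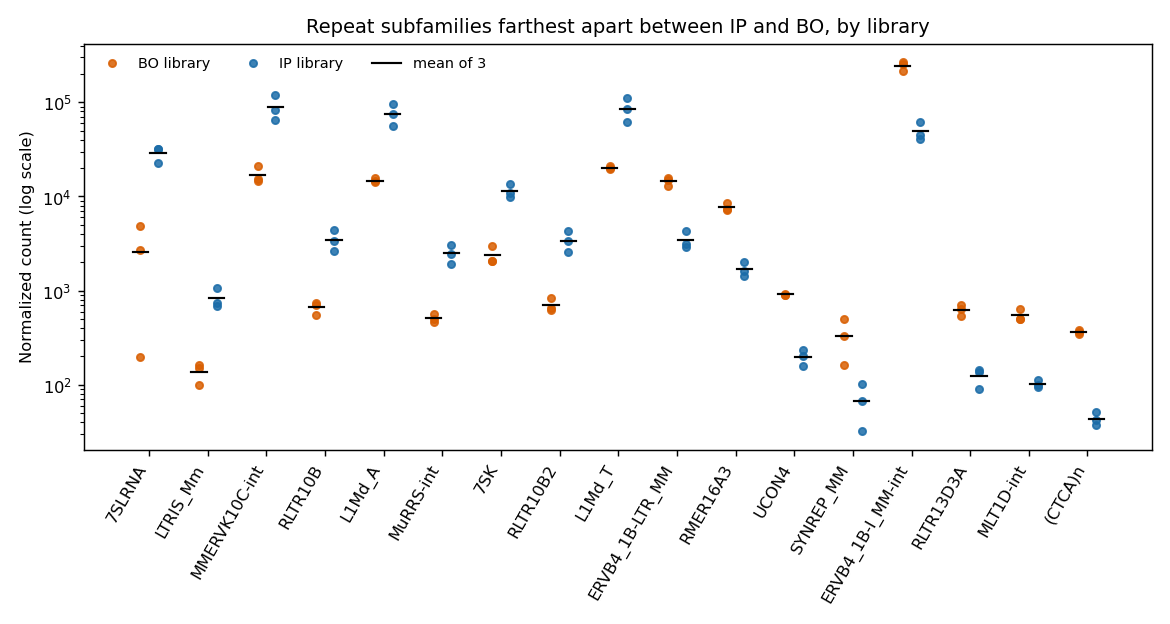
Normalized counts (vertical axis, log scale) of each IP and BO library for the 8 subfamilies with the highest and the 8 with the lowest fold change among those called with a mean of at least 100, and for L1Md_T, ordered by fold change, with black bars at the mean of 3 libraries. The libraries of the groups do not overlap for any of them, and 7SL RNA has the widest spread in BO, from 196.5 to 4905.

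SINEs, the short elements that L1 proteins can copy, gave 1 call in each direction. Of 35 SINE names 1 was called higher and 1 lower (2.86% each, beside 5.12% and 3.84% of all TE subfamilies). A negative fold change was found in 31 (88.6%, beside 61.7% of all subfamilies), and 27 lay below the median of all subfamilies, -0.12. B2_Mm1a, of the tRNA-derived B2 family, read 15882, 31194 and 22646 in IP and 8156, 9157 and 8919 in BO. The IP libraries spread widely, and the lowest of them still lay above each BO library. Its log2 fold change was 1.36 (SE 0.23, adjusted p = 0.000641 from limma). B2_Mm1t had 0.84 and B2_Mm2 0.04, and neither was called. The 10 B1 names, whose ancestor is 7SL RNA, were all negative without a call, between -0.45 and -0.11, and scaling to library totals turned B1_Mus1 to 0.35. The SINE class took 27.01%, 31.2% and 31.7% of the normalized count in IP and 28.9%, 30.6% and 15.3% in BO.

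DNA transposons, which move by excision, gave few calls. Of 169 names 4 (2.37%) were higher and 5 (2.96%) lower, beside 5.12% and 3.84% of all TE subfamilies. The IP libraries lay above BO for 19 (11.2%) and below for 56 (33.1%), beside 17.8% and 31.3%. FordPrefect had a log2 fold change of 1.90 and Charlie6, at 476.6, 562.1 and 405.8 in IP and 93.5, 102.8 and 181.2 in BO, of 1.98. The Tigger names, of the mariner superfamily, gave 3 lower and none higher of 28. Tandem repeats gave 9 higher (5.42%) and 5 lower (3.01%) of 166, shares near the 5.08% and 3.81% of all subfamilies. (CTCA)n read 42.7, 37.1 and 51.7 in IP and 359.6, 382.5 and 343.2 in BO, the lowest fold change among the called subfamilies, at -3.03 (SE 0.16, adjusted p = 1.52e-07 from limma). Its complement, (TGAG)n, was lower too, at -1.94. (CAG)n and its complement (CTG)n were both higher, at 1.62 and 1.32. Those were the 2 complement pairs with both names called, of 71 pairs, and in 10 pairs at least 1 name was called. The fold changes had the same sign in 7 of these 10. In the others the signs were opposite. (GAA)n was at -1.33 and (TTC)n at 0.39, (CTA)n at 1.25 and (TAG)n at -0.23, and (CACCAT)n at 1.28 and (ATGGTG)n at -0.55.

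Noncoding RNAs among the repeat names differed from each other. 7SL, the RNA of the signal recognition particle, which takes ribosomes to the endoplasmic reticulum, had the highest fold change of any subfamily called. It read 32328, 31962 and 22706 in IP and 4905, 196.5 and 2672 in BO, a log2 fold change of 4.38 (SE 0.85, adjusted p = 0.00176 from limma). The SE is wide because the BO libraries differed from each other, and without BO replicate 2 the fold change was 2.98 and without BO replicate 1 it was 5.30. 7SK read 10859, 13423 and 9865 in IP and 3000, 2088 and 2075 in BO (log2 fold change 2.26, SE 0.19, adjusted p = 3.68e-06 from limma). Both were far more abundant before the pulldown: 7SL read between 485266 and 541231 in the pooled fractions and 7SK between 80364 and 84798. HY1, a small RNA that binds the Ro protein, lay above BO in each IP library, at 42.7, 74.3 and 50.7 against 8.73, 2.6 and 12.8, but was not called (log2 fold change 2.82, adjusted p = 0.0605 from limma). The spliceosomal U1 and U2 RNAs overlapped between the groups, and BC1, a neuronal RNA that controls translation, read 2509, 2641 and 2632 in IP and 2983, 3198 and 3064 in BO.

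The tRNA-derived name tRNA-Ser-TCA(m) had 0 reads in each IP library, against 7515 and 4224 in BO replicates 1 and 2 and 1 read, worth 1.60, in BO replicate 3. A count of 0 allows up to 3 reads, which is 4.41, 3.84 and 2.93 normalized counts in IP replicates 1 to 3. BO replicate 3 lay with the IP libraries, and the name was not called (adjusted p = 0.0522 from limma). That depended on the fit: without BO replicate 3 it was called lower (adjusted p = 0.00582 from limma), as it was under 8 of the 16 alternatives, over which the adjusted p ranged from 6.21e-06 to 0.184. Of 15 tRNA names tested, tRNA-Ser-TCY alone was called, and it was higher at 16.2, 12.8 and 10.7 in IP and 2.49, 3.90 and 3.21 in BO, a name of few reads.

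Single loci were then compared with their subfamilies. A locus value counts reads that map to that place alone, whereas subfamily values include the multiply mapped reads that the authors reassigned, so the 2 tables hold different reads. Of 781935 loci listed, 5557 had an average of the group means of at least 10, and their median log2 ratio was -0.90. Of these, 958 (17.2%) were above 2-fold and 2652 (47.7%) below. L1Md_A loci were the reverse: 86 of 95 were above 2-fold and 0 below, with a median of 1.91. L1Md_T had 87 above and 4 below of 101, and L1Md_F2, which was not called as a subfamily, had 56 above and 16 below of 113. MMERVK10C-int had 86 above and 3 below of 135. ERVB4_1B-I_MM-int had 1 above and 35 below of 36, and MMVL30-int 0 above and 62 below of 65. Loci were kept on the average of the group means, so some can have passed only through the group where they are high. No count with both means at least 10 was made for loci. The locus counts describe the loci so kept, and carry no test.

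Individual loci did not all follow their subfamily. Of the 3 L1Md_A loci with the highest IP mean, the first, L1Md_A_3685, had an IP mean of 94.2 and a BO mean of 112, while the next 2 had 94.0 against 24.985 and 86.4 against 14.1. The leading L1Md_F2 locus, L1Md_F2_47544, had 308 in IP and 63.6 in BO. The leading MMERVK10C-int locus, MMERVK10C-int_186, had 1247 in IP and 236 in BO. Summed over the uniquely mapped reads of its loci, the sign was that of the subfamily for 36 of the 48 TE names called higher and for 33 of the 36 called lower. Of the names given above, Charlie6, L1M2b and RLTR13D3A had the opposite sign. MER124, whose DNA class is marked as uncertain and which is outside those counts, also did, at 22.1 in IP and 18.4 in BO. Summed over all loci of a class, the log2 ratio was -0.74 for LTR, -0.59 for SINE, -0.72 for DNA and -0.09 for LINE names. A negative sum is thus also what each class gave as a whole. 7SL RNA is a case of disagreement outside the TEs, with a sum of 59.9 in IP and 144 in BO over its annotated copies. Of those uniquely mapped reads, 1 locus held over 50% of the IP sum for 17 of the 48 higher names, among them MuRRS-int at 79.3% and FordPrefect at 91.7%, and over 50% of the BO sum for 13 of the 36 lower names.

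Genes were compared by the authors' means of normalized counts, as log2 of (IP mean + 1) over (BO mean + 1). Of 20981 genes, 13634 had an average of the group means of at least 10. Their median log2 ratio was 0.81, a 1.75-fold ratio, with the middle of the distribution between -0.15 and 1.58. The ratio was above 2-fold for 5981 genes (43.9%) and below 2-fold for 1522 (11.2%). Centred on the median gene, 2500 (18.3%) were above and 3289 (24.1%) below. The ratios below are as computed, and a gene at 0.81 stands with the median gene. Reads on genes took 76.3% of the summed means in IP and 60.3% in BO. Reads mapped outside any feature took 10.3% and 21.4%.

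The genes with the most reads in IP differed from those with the most in BO. Top2a, the topoisomerase of dividing cells, was among the leading genes in IP, at an IP mean of 64510 and a BO mean of 13734 (log2 ratio 2.23). Usp9x, a deubiquitinase, came next at 59309 in IP with a BO mean of 61378 (log2 ratio -0.05). Hsp90aa1, a chaperone, had 57992 and 5119 (log2 ratio 3.50), and Trip12, a ubiquitin ligase, 55172 and 30920 (0.84). In BO the leading genes were Lrrc58, with 97561 in BO and 7961 in IP (log2 ratio -3.62), and Taok1, a kinase, with 93480 and 18008 (-2.38). Malat1, a nuclear long noncoding RNA, had 75616 and 13628 (-2.47), Pank3, an enzyme of coenzyme A synthesis, 74670 and 13497 (-2.47), and Prlr, the prolactin receptor, 69627 and 2532 (-4.78).

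Of genes with an average of at least 100, the 10 highest ratios lay between 4.01 and 4.49 and the 10 lowest between -5.85 and -4.17. Pdcl2, a phosducin-like chaperone of germ cells, led with an IP mean of 347 and a BO mean of 14.5 (log2 ratio 4.49). It was followed by H2bfm, a histone H2B gene on the X chromosome, at 348 and 15.1 (4.44). Also among the 10 were Oip5, which loads the centromeric histone (4.27), Spata4, a spermatogenesis gene (4.23), Tmem97, the sigma-2 receptor (4.21), and Msra, which repairs oxidised methionine (4.01), beside 1700020N01Rik (4.34), 3830417A13Rik (4.31), Gm595 (4.16) and 1110051M20Rik (4.03). At the other end, Prkg1, the cGMP-dependent kinase, had a BO mean of 19079 and an IP mean of 330 (log2 ratio -5.85). Igf1, the growth factor, had 8184 and 308 (-4.73) and Mbnl1, a splicing regulator, 42289 and 2352 (-4.17). The others were Pi15 (-5.08), Tmem47 (-4.86), Prlr (-4.78), Cd300c (-4.41), Cav2, a caveolin (-4.30), Tnfaip6 (-4.24) and Pabpc4l (-4.18).

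Meiotic genes stood well above the median gene. All 14 tested genes of the synaptonemal complex and meiotic axis, which hold homologous chromosomes together, were above 2-fold, with a median of 2.91. Sycp1, the transverse filament protein, had an IP mean of 54865 and a BO mean of 4494 (log2 ratio 3.61), Smc1b, a meiotic cohesin, 28210 and 3574 (2.98), and Sycp2, an axis protein, 25401 and 6257 (2.02). Of 20 genes of meiotic recombination 19 were above 2-fold, with a median of 2.32, among them Brca2 at 11989 and 4916 (1.29), Hfm1, a crossover helicase, at 9861 and 1586 (2.64), and Tex11 at 6803 and 1302 (2.38). Of 25 genes of the piRNA pathway 20 were above and 0 below, with a median of 2.30. Tex15 had 36776 and 17657 (1.06), Mov10l1, the helicase that feeds piRNA precursors into processing, 17045 and 2352 (2.86), and Piwil2, a PIWI protein, 16160 and 2812 (2.52). These shares stand beside 43.9% of all genes above 2-fold. Centred on the median gene, 13 synaptonemal, 15 recombination and 14 piRNA pathway genes were above 2-fold, and 0, 0 and 2 below. The shares of all genes so centred were 18.3% above and 24.1% below.

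Markers of the cell types of the testis did not move together. Both pulldowns start from extracts of whole testes, so a ratio of IP to BO does not measure cells, and in such RNA fewer cells of a type and less RNA per cell cannot be told apart. Of 21 tested spermatocyte markers, 13 of them in the synaptonemal list as well, 20 were above 2-fold, and their summed mean was 188827 in IP and 25198 in BO. Spermatid markers were low in both groups. Of 12 markers 2 passed the filter, Spaca1 and Spata18, the latter, at 14.3 in IP and 8.59 in BO, only through IP. The summed mean was 214 in IP and 61.1 in BO. Spermatogonial markers divided, with 4 above and 4 below of 13 and a median of -0.09, beside 43.9% above and 11.2% below of all genes. Sohlh2, a transcription factor of differentiating spermatogonia, had 1557 in IP and 143 in BO (log2 ratio 3.44), while Kit, the receptor of the same cells, had 1309 and 4494 (-1.78), and Etv5 568 and 945 (-0.73).

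Somatic markers differed by cell type. Of 15 Sertoli cell markers 1 was above and 5 below 2-fold, beside 43.9% and 11.2% of all genes. Once centred on the median gene, 0 were above and 7 below, beside 18.3% and 24.1% of all genes. The list had a median of -0.11 and a summed mean of 31193 in IP and 48329 in BO. Clu had an IP mean of 15904 and a BO mean of 17179 (-0.11), Ctsl, a cathepsin, 6283 and 11686 (-0.90), and Cst9, a cystatin, 1823 and 7035 (-1.95). Of 12 Leydig cell markers 4 were above (33.3%, beside the same 43.9%) and 2 below, with a median of 0.60. Centred on the median gene, 0 were above and 3 below. The steroidogenic enzymes Cyp11a1, at 4018 and 1534 (1.39), and Cyp17a1, at 3822 and 1326 (1.53), were above 2-fold, and Star, which brings cholesterol into mitochondria, was at 1932 and 1460 (0.40). The 2 below were Lhcgr, the receptor of luteinizing hormone, at 128 and 858 (-2.74), and Hsd17b3, the enzyme that makes testosterone, at 220 and 518 (-1.23). Peritubular markers had a median of 0.91 over 5 genes, with Myh11 at 1.003, Acta2 at 0.72 and Des at 1.32. Of 5 macrophage markers Csf1r was at 1.14, C1qa at 1.07 and Cd163 at 0.14, and Cd68, at 18.2 in IP and 6.67 in BO, passed the filter only through IP. The 4 others had a median of 0.61. The 5 endothelial markers had a median of 0.21, with Kdr at -0.53, Tek at -0.39 and Vwf at 1.04, and the red cell gene Alas2 was at 0.59.

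**Figure D4:**
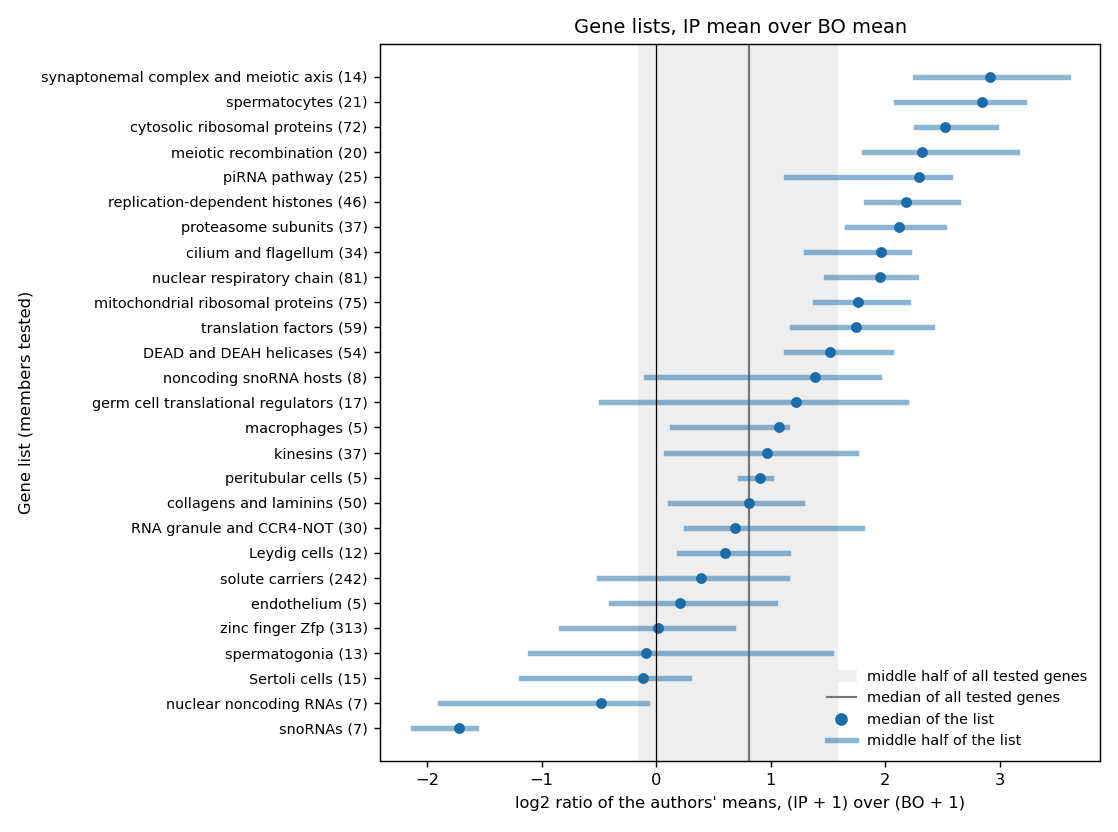
Median (dot) and middle part (bar, between the quartiles) of the log2 ratio of the authors' IP and BO means for each gene list with at least 5 tested members (vertical axis, number tested in parentheses), beside the median of all tested genes (grey line, 0.81) and its quartiles (grey band). The synaptonemal, spermatocyte and cytosolic ribosomal protein lists lie highest, at 2.91, 2.84 and 2.52, and the snoRNA list lowest, at -1.72.

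Lists of translation, proteasome, respiratory chain, histone and cilium genes also had medians above the median gene. Over all genes, 43.9% were above 2-fold and 11.2% below. Of 72 cytosolic ribosomal protein genes 71 were above 2-fold, with a median of 2.52, and Rpl4 had 4465 in IP and 620 in BO (log2 ratio 2.85), Rplp0 3751 and 354 (3.40) and Rpl9 2530 and 180 (3.80). Translation factors were above in 45 and below in 2 of 59, with Eef2 at 28235 and 5609 (2.33), Eif4g2 at 27294 and 9733 (1.49) and Eef1a1 at 22381 and 2865 (2.97). All 37 proteasome subunits were above, with a median of 2.12, Psmd2 at 2.26, Psmd1 at 2.14 and Psmc6, the lowest of the list, at 1.14. Of 81 nuclear genes of the respiratory chain 71 were above (median 1.95), with Atp5a1 at 2.12, Atp5b at 2.27 and Ndufs1 at 1.56. Mitochondrial ribosomal proteins were above in 69 of 75 (median 1.76), with Mrpl3 at 2.99, Mrpl9 at 2.80 and Mrpl39 at 1.89. Replication-dependent histone genes, whose mRNAs end in a stem-loop in place of a poly(A) tail, were above in 42 of 46 (median 2.18), 10 of which passed the filter only through IP, and in 32 of the 36 others, with Hist1h1a at 2.21 and the testis variants Hist1h2ba at 2.84 and Hist1h2aa at 3.40. Genes of cilium and flagellum were above in 30 of 34 (median 1.97), with Ift122 at 2.49, Ift80 at 2.59 and Ift88 at 2.62. Centred on the median gene, the genes above 2-fold were 66 cytosolic ribosomal proteins, 28 translation factors, 24 proteasome subunits, 44 respiratory chain genes, 34 mitochondrial ribosomal proteins, 35 histones and 20 genes of cilium and flagellum, and 4 translation factors and 2 histones were below. The shares of all genes so centred were 18.3% above and 24.1% below.

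RNA-binding and granule proteins were mixed. The DEAD and DEAH helicases, which unwind RNA, were above in 41 and below in 2 of 54 (median 1.52), with Ddx5 at 1.58 and Dhx40 at 2.84, and 20 above and 3 below once centred, whereas Ddx6, a helicase of decay granules, had 8468 in IP and 17782 in BO (-1.07). A list of proteins of RNA granules and of the CCR4-NOT deadenylase complex had 14 above (46.7%, beside 43.9% of all genes) and 3 below of 30, or 7 and 4 once centred, and a median of 0.69, with Cnot1, the scaffold of the complex, at 0.57 and Fmr1 at 1.23. Translational regulators of germ cells had 9 above (52.9%, beside the same 43.9%) and 3 below of 17, and 5 above and 5 below once centred. Of all genes, 43.9% were above and 11.2% below as computed, and 18.3% and 24.1% once centred. Dazl, which promotes translation in germ cells, had 43384 in IP and 8198 in BO (log2 ratio 2.40), and Ythdc2, a helicase needed for meiosis, 19964 and 6048 (1.72), while Pum2, a repressor, had 14279 and 32624 (-1.19). Actb, the beta-actin gene, was at 10907 and 7795 (0.48), under the median gene.

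Zinc finger genes and solute carriers had medians under the median gene, while kinesins and collagens lay near it. The 313 Zfp zinc finger genes had 51 above and 54 below 2-fold, beside 43.9% and 11.2% of all genes, and a median of 0.01. Once centred, 12 were above and 134 below, beside 18.3% and 24.1%. Of the 313, 6 passed the filter only through IP and 6 only through BO, and the 301 others had 46 above and 50 below. Zfp518a had 21012 in IP and 25305 in BO (-0.27), Zfp871 1944 and 26816 (-3.79) and Zfp704 9363 and 17910 (-0.94). Solute carriers had 73 above and 37 below of 242 (median 0.39), or 23 and 81 once centred. Of the 242, 13 passed the filter only through IP and 2 only through BO. The 227 others had 65 above and 35 below (median 0.31). Slc5a3, the inositol transporter, was at -2.68, Slc4a7 at -1.77 and Slc30a4 at -0.41. Kinesins had 18 above (48.6%, beside 43.9% of all genes) and 1 below of 37, with a median of 0.96, and 9 above and 7 below once centred. The gene below as computed was Kif21a, at 2981 in IP and 20353 in BO (-2.77), beside Kif5b at -0.44 and Kif1b at 0.09. Collagens and laminins had 21 above and 3 below of 50 (median 0.81), or 5 and 8 once centred, with Lama1 at 1.06 and Lamb2 at 2.13. The pattern behind that list also takes in Col4a3bp, a ceramide transporter, at -0.65.

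Noncoding genes lay on both sides. Of 7 snoRNA and scaRNA genes tested 6 were below 2-fold and 0 above, with a median of -1.72, though Snord2, at 4.94 in IP and 15.1 in BO, passed the filter only through BO. Scarna10 had 404 in IP and 1333 in BO (-1.72), Scarna6 164 and 579 (-1.81) and Scarna2 99.9 and 545 (-2.44). Rmrp stood opposite, at 2356 in IP and 306 in BO (log2 ratio 2.94), and Rpph1, the RNA of RNase P, had 880 and 359 (1.29). Of 7 nuclear long noncoding RNAs 1 was above and 3 below, with Malat1 at -2.47, Tug1 at -1.30 and Kcnq1ot1 at 1.04. Noncoding hosts of snoRNAs were above in 4 and below in 1 of 8, near the 43.9% and 11.2% of all genes, with Gas5 at 0.11, Snhg1 at 2.05 and Snhg5 at 1.93.

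Transcript length differed between the ends of the distribution. Over 13117 coding genes with features from GENCODE M21, taken from the longest transcript, genes above 2-fold had a median 3′ UTR of 778 nt and those below 2-fold of 2589 nt. With the genes in 5 bins of equal size from short to long 3′ UTRs, the median log2 ratio was 1.43, 1.15, 0.81, 0.46 and -0.05. The share above 2-fold went from 68.5% in the bin with the shortest 3′ UTRs to 19.7% in that with the longest. Spearman's rho across genes was -0.41 with 3′ UTR length and with transcript length, -0.16 with coding length, -0.19 with A+U content of the 3′ UTR (12984 genes) and 0.20 with GC content of the transcript. With the average level it was -0.04, and -0.14 over the 9256 genes with an average of at least 100. These are descriptions, since all genes come from the same libraries and the features are related to each other.

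**Figure D5:**
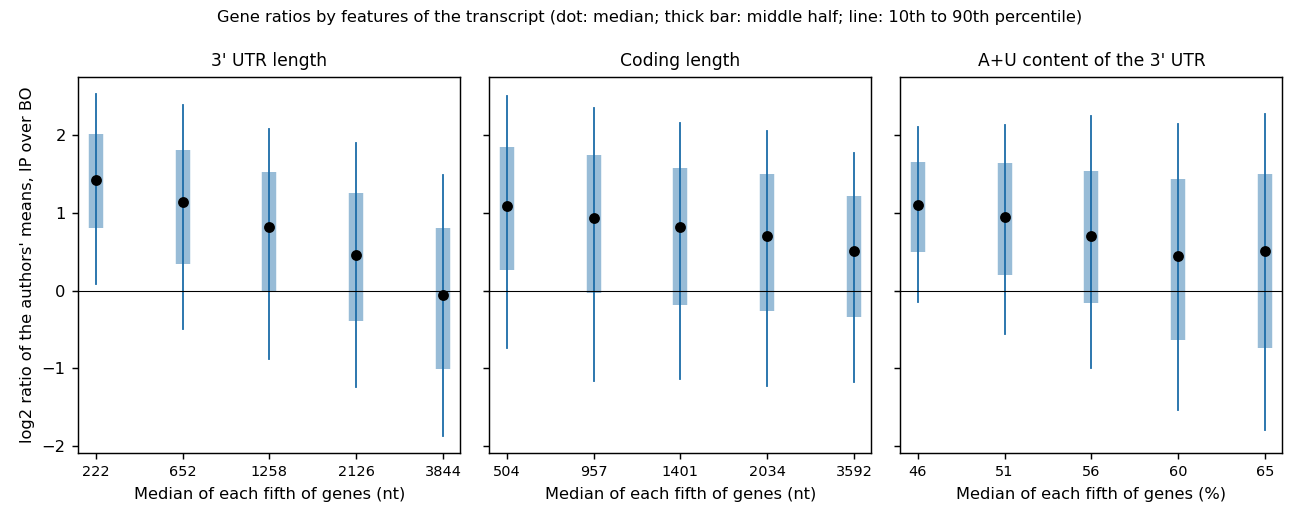
Log2 ratio of the authors' IP and BO means (vertical axis) in 5 equal bins of the coding genes ordered by 3′ UTR length, coding length and A+U content of the 3′ UTR (horizontal axes, median of each bin in nt or %), with the median (dot), quartiles (thick bar) and 10th to 90th percentiles (line). The median goes from 1.43 to -0.05 over the bins of 3′ UTR length and from 1.09 to 0.51 over those of coding length.

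The medians also differed by A+U content, and most among genes with long 3′ UTRs. The genes were put into 3 bins of 3′ UTR length and 3 of A+U content. Among the shortest 3′ UTRs, the median ratio was 1.31, 1.42 and 1.25 from the least to the most A+U-rich bin. Among the longest it was 0.65, 0.19 and -0.45, and in the last of these 35.4% of genes were below 2-fold and 17.2% above. At a given 3′ UTR length, the median ratio was also lower with a longer coding part, from 1.44 to 1.1996 among the shortest and from 0.50 to -0.11 among the longest 3′ UTRs. By chromosome, the 570 genes of the X had a median of 0.36, against 0.44 to 0.996 on the 19 autosomes.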

How the data were processed

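RNA of IP and BO samples from Mael-/- testes was sequenced by the authors with stranded total RNA libraries depleted of rRNA. Mapping to mm10 was done by the authors with STAR 2.6.0c. For repeats they reassigned multiply mapped reads with Telescope, summed them per subfamily and normalized the counts with EBSeq, and the deposited signal is this upper-quartile normalized count for each library. For genes and single loci the deposited signal is the authors' DESeq2 1.24.0 mean of normalized counts per group. The same table holds the authors' log2 fold change, standard error, statistic and p-values, which were not used. The annotation of the genes is not given in the sources used here.

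Every subfamily value was a whole multiple of a step per library (100% of values, tolerance 0.1 of a read), which gave the reads. Subfamilies averaging at least 10 across 12 libraries were tested with limma 3.58.1 (R 4.3.3) on log2 of the normalized count plus 1, in 1 fit of the 4 groups with a trend, leaving 8 residual degrees of freedom, and Benjamini-Hochberg adjustment over 1180 subfamilies. Single p-values measure the spread between these libraries. On simulated counts with 200 subfamilies changed, 98.5% of them were called, with 3 unchanged ones. These figures hold for the simulated counts alone. How many of the calls in the real libraries are right was not tested. The gene depth could be seen only as steps: 1 read added 0.249, 0.303 or 0.323 to an IP mean and 0.239, 0.419 or 0.502 to a BO mean. Rows for unmapped, multiply mapped, ambiguous and unassigned reads were left out of the gene comparison.

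Named subfamilies were the 8 highest and 8 lowest called with a mean of at least 100, the 4 most abundant in IP and in BO, and the most abundant of each family with at least 5 tested. Named genes were the 10 highest and 10 lowest with an average of at least 100, the 5 most abundant in each group, and the 3 most abundant of each list. Other names were chosen after their values were seen, and 1 gene that the rule names is not reported here. Members and the 31 gene lists were chosen with earlier results of these data known. The list of mitochondrially encoded genes had no row and was not analysed here. Gene features were matched by symbol for 20704 of 20981 genes. Alternatives were other pseudocounts, filters, scalings, a fit of IP and BO only, a replicate block, edgeR 4.0.16 and DESeq2 1.42.0 on recovered reads, and each replicate left out.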

Additional observations from a re-analysis of the deposited data

How the results depend on the processing

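Of the comparisons, L1Md_A, L1Md_T and MMERVK10C-int were called higher under every alternative run. With each replicate left out in turn, their log2 fold changes ranged from 2.14 to 2.52, from 1.84 to 2.26 and from 2.15 to 2.58, the subfamilies called higher from 55 to 68 and lower from 42 to 52, and the TE subfamilies from 45 to 52 and from 30 to 41. Scaled to library totals, 125 subfamilies were higher and 17 lower, of which 99 and 9 were TE subfamilies. With a mean of at least 100, 27 were lower, 19 of them TE subfamilies. That filter tests fewer names. Centred on the median gene, 2500 genes were above 2-fold and 3289 below. With a mean of at least 10 in both groups, a filter added after the data were seen, 5469 genes were above and 1368 below of 12807. Under that filter 65 of 70 mitochondrial ribosomal proteins, 70 of 79 respiratory chain genes, 18 of 36 kinesins and 18 of 46 collagens and laminins were above. Among names without a call, the sign turned with scaling to library totals for B3 (0.21), ID_B1 (0.23), B1_Mus1 (0.35), L3 (0.37), MTD (0.44), MER2 (0.16), MurSatRep1 (0.33), BLACKJACK (0.053), URR1B (0.15) and MMSAT4 (0.31). It turned for L3 with edgeR (0.00094), for MTD with edgeR (0.075), DESeq2 (0.068) and the median ratio (0.065), and with 1 replicate left out for MERVL_2A-int (range -0.063 to 0.056), MTD (-0.12 to 0.0049) and Kanga2_a (-0.058 to 0.11). The causes were not tested. Libraries with the same number did not deviate together (correlations -0.014, 0.079 and 0.098), and with a replicate block 62 subfamilies were higher and 49 lower, 59 and 44 of them called without it, and TE subfamilies were 50 and 35. Under the block tRNA-Ser-TCA(m) was called lower (adjusted p = 0.0167), and B1_Mus1 had an adjusted p of 0.0437 but stayed under 2-fold. Depth limits names of few reads, and 3 reads are worth up to 4.81 normalized counts in a library.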
